A study of Tupaia belangeri chinensis with 36 samples.

Results

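Homeobox genes encode transcription factors that bind DNA through a homeodomain and set the identity of regions and cell types in the developing brain. In the fetal forebrain, DLX, LHX6 and NKX2-1 mark the ventral (subpallial) domains from which cortical interneurons come, whereas EMX, PAX6 and LHX2 mark dorsal (pallial) progenitors. POU3F and CUX proteins are known from later progenitors and upper-layer neurons, and LHX1 and LHX5 from Cajal-Retzius cells, the reelin-producing neurons of the marginal zone. Many of these genes lie beside noncoding transcripts, either antisense to the gene or in the intervals around it. A name given in this way records a neighbouring gene, and it does not state that the transcript acts on that gene.

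The transcripts described here were those of the annotation whose name starts with LINC or contains -AS- and carries the symbol of a DLX, EMX, LHX, NKX, OTX, PAX, MEIS, POU, IRX, CUX or SIX-family gene. They were found by name alone, and they numbered 342 of 76871 annotated features, of which 274 had LINC names and 68 had antisense names. One of them is named after POU2AF1, which encodes a coactivator and not a homeodomain protein, and it had no count. The annotation spells the symbol of one member DLX6A, which is kept here.

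RNA was sequenced from cortical layers of fetal Chinese tree shrews (Tupaia belangeri chinensis), cut from Nissl-stained sections by laser capture microdissection, and the libraries were made from poly(A)-selected mRNA. At embryonic day 28 (E28) there were 2 libraries each of the ventricular zone (VZ), the inner and outer subventricular zones (ISVZ and OSVZ), the intermediate zone (IZ), the cortical plate (CP) and the marginal zone (MZ). E37 was represented by the IZ (3 libraries), the MZ (2), the inner and outer CP (CPi and CPo, 2 each) and the CP cut whole (1), and the germinal layers of that stage were not analysed here. E42 was represented by the VZ with 1 library and by ISVZ, OSVZ, IZ, MZ, CPi and CPo with 2 each. The labels name no genotype, treatment or sex, and no animal for any library. The study states that its experiments used biological replicates but ties no library to an animal, so p-values measure the spread between these libraries, which may in part be technical. A file labelled as VZ replicate 2 of E42 held the counts of VZ replicate 2 of E28 in every feature and was left out. VZ, ISVZ and OSVZ are called germinal layers below, and IZ, CP and MZ neuron-rich layers.

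Counts on features ranged from 17932690 to 102042743 over the 35 libraries (median 31756620), so that 1 count stood for 0.00957 to 0.0556 CPM (counts scaled to a library of 1000000). Between 15.0% and 19.1% of the reads in a library were ambiguous between features and were not counted. Neither the labels nor the methods state that library preparation or counting kept strand, so the reads of an antisense transcript and of the gene across from it cannot be told apart. Coding features carry no gene symbols, and the layer labels were therefore checked on noncoding features named after marker genes. Those named after progenitor genes such as SOX2 and HES1 (5 symbols, 39 features) summed to 18.4 to 19.1 CPM in the VZ and 1.89 to 3.16 in the CP at E28. The check sets VZ against CP at that stage only and does not separate the VZ from the other germinal layers. LINC-SOX2-3 was highest in the VZ of E28 (8.07 and 9.77 CPM). LINC-SOX2-2 was at 6.35 and 2.97 CPM there and 10.9 and 2.83 in the ISVZ. At E42 it was at 2.58 CPM in the VZ and 14.2 and 13.2 in the ISVZ. No feature was named after TBR1 or HES5, and those named after EOMES and VIM were too low to be tested. Names of endothelial and mural genes summed to at most 0.945 CPM in any library, and those of the choroid plexus genes TTR and CLIC6 were at 0 in every library but 1 of the VZ at E28, at 0.542 CPM. Those of astrocyte genes (3 symbols, 10 features) summed to 0 to 5.69 CPM and those of microglial genes (4 symbols, 21 features) to 4.06 to 22.7 CPM over all libraries. The microglial sum came mostly from LINC-PTPRC-4, at 2.97 to 21.9 CPM, and features of CX3CR1, CSF1R and SPI1 were too low to be tested.

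Most of the transcripts were scarce. Of the 342, 172 had no count in any library, 170 had at least 1 count, 10 had counts in every library and 67 (19.6%) passed the filter on low counts and were tested. Of all 54371 LINC and AS features, 64.7% had a count and 19.9% were tested. Antisense members were counted more widely than LINC members, with 51 of 68 against 119 of 274 having a count and 23 against 44 being tested. The families differed in how many of their members passed, with 27 of 67 POU members, 9 of 20 MEIS members and 5 of 12 DLX members tested. Only 5 of 92 IRX members, 3 of 39 PAX members, 6 of 41 NKX members and 0 of 14 SIX-family members were tested. The remaining tested members were 5 of 19 LHX, 3 of 17 EMX, 3 of 14 CUX and 1 of 7 OTX members. The median of the mean CPM was 0.186 over the 67 tested members and 0.132 over all tested LINC and AS features. A few members held most of the signal. DLX6A-AS-1 (mean 156 CPM over 35 libraries) accounted for 47.3% of the CPM of all members, and together with MEIS2-AS-3 (66.7 CPM) and LINC-POU3F3-1 (35.9 CPM) for 78.4%. LINC-POU3F1-1 (22.8 CPM) and LINC-LHX5-1 (9.58 CPM) followed. CPM is not divided by transcript length, so these means do not rank transcripts by abundance.

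The layer in which each member had its highest mean was tallied. Of the 67 tested members, 16 had the highest of their 18 group means in the VZ, 13 in the ISVZ and 14 in the OSVZ, which are 23.9%, 19.4% and 20.9%, beside 20.3%, 12.8% and 9.02% of all tested LINC and AS features. The IZ held the highest mean of 4 members, the CP of 6 and the MZ of 14, or 5.97%, 8.96% and 20.9%, beside 11.9%, 19.2% and 26.9%. These shares are a description, and their difference was not tested. In all, 42 of the 67 were called in at least 1 of the 16 comparisons at an adjusted p below 0.05 in edgeR's quasi-likelihood test, and 25 in none. The same share was not taken over all features, so this count does not set the members apart.

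**Figure D1:**
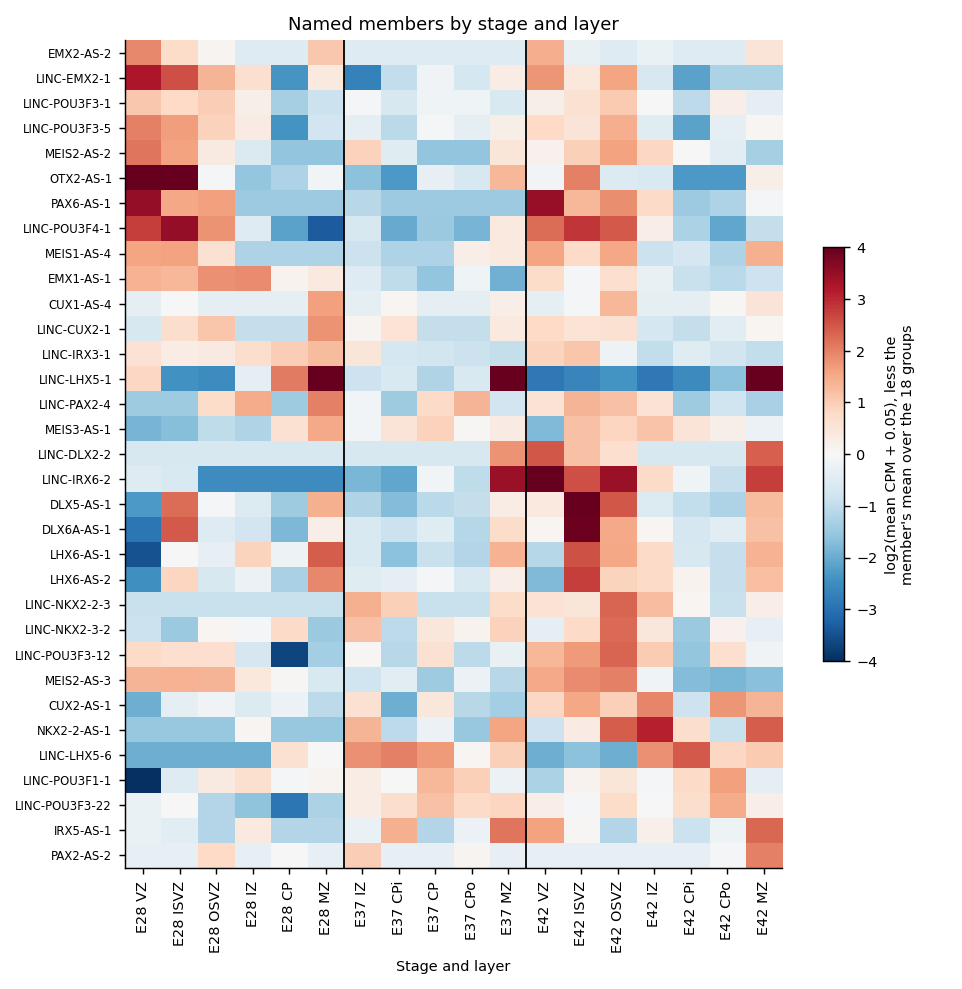
Mean levels of 33 named members in the 18 groups of stage and layer. Rows are members ordered by the group of their highest mean, columns are groups, and colour is log2(mean CPM + 0.05) less the member's own mean over the 18 groups, cut at 4 on either side; PAX6-AS-1 was high in the VZ of E28 and E42, OTX2-AS-1 in the VZ and ISVZ of E28, DLX6A-AS-1 and DLX5-AS-1 in the ISVZ of E42, and LINC-LHX5-1 in the MZ.

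Germinal layers were compared with neuron-rich layers first, giving each layer equal weight on the log scale. At E28, 21 members were higher in the germinal layers and 4 were lower (LINC-LHX5-1, LHX6-AS-1, MEIS3-AS-1 and LINC-POU3F1-1), which is 37.3% of those tested, beside 35.7% of all features and 16.6% of all LINC and AS features, 6.35% higher and 10.3% lower. The median log2 fold change was 0.76 over the members and -0.30 over LINC and AS features. At E42, 21 were higher and 1 lower (32.8%, beside 30.1% and 12%, the latter 7.31% higher and 4.73% lower), with medians of 1.31 and 0.20. A higher level in a layer can reflect more cells that make the transcript or more RNA in each, and these cannot be told apart in tissue samples. Where a layer had no count on both sides of such a mean, the mean of logs could not be tested. That applied to 22 members at E28 and 14 at E42, none of them called.

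As a gauge, 59 tested LINC and AS features named after other homeobox families, such as HOX, ZEB, ZFHX and PROX, were taken from 424 listed. At E28, 10 of these were higher in the germinal layers and 11 lower, with a median of -0.28, and at E42 the counts were 4 and 5, with a median of 0.21. The members were also counted by the role of the gene they are named after. A list of CUX1, CUX2 and POU3F genes was set up as cortical neuron factors, although these are also known from later progenitors. Of its 23 tested members, 14 were higher and 1 lower at E28, and 9 and 0 at E42. Of these, 13 and 8 carry the name of POU3F3 alone, and the remaining one at each stage was LINC-POU3F4-1. Of 4 named after pallial progenitor factors, 2 were higher at each stage. Of 11 named after subpallial and interneuron factors (DLX2, DLX5, LHX6, NKX2-1 and MEIS2), MEIS2-AS-2 was higher and LHX6-AS-1 lower at E28, and LINC-MEIS2-2, MEIS2-AS-3 and DLX5-AS-1 were higher at E42. Of 3 named after LHX1 or LHX5, 0 were higher at either stage and 1 was lower at each. DLX6A-AS-1 stood outside the subpallial list, since the annotation's spelling did not match DLX6.

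PAX6-AS-1, antisense to the paired-box gene that drives radial glial identity, was at 2.14 and 0.915 CPM in the VZ of E28, 0.252 and 0.457 in the ISVZ, and 0.440 and 0.318 in the OSVZ. It had 0 counts in all 6 neuron-rich libraries of that stage. With 3 counts taken as the floor over those 6 libraries, it was at least 44.4-fold higher in the germinal layers (adjusted p = 1.14e-05). At E42 it was at 1.48 CPM in the VZ, 0.264 and 0.323 in the ISVZ, and 0.155 and 0.747 in the OSVZ, and at most 0.307 in any neuron-rich library, so that the groups overlapped. Its log2 fold change there was 3.58 ± 0.75 (SE, 5 against 8 libraries, adjusted p = 6.26e-04).

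LINC-EMX2-1, named after the homeobox gene of the dorsomedial pallium, was graded across the germinal layers of E28. Its levels were 3.76 and 2.28 CPM in the VZ, 1.88 and 1.92 in the ISVZ, and 0.853 and 0.724 in the OSVZ, against 0 and 0.0271 in the CP. The OSVZ library at 0.724 CPM lay below an MZ library at 0.758, so germinal and neuron-rich libraries of E28 overlapped, whereas those of E42 did not. The germinal mean was above the neuron-rich mean at E28 (log2 fold change 3.44 ± 0.80, adjusted p = 9.55e-04) and at E42 (2.92 ± 0.73, adjusted p = 0.00259). EMX1-AS-1, named after the other pallial EMX gene, was called between stages. It lay between 0.514 and 3.09 CPM in the neuron-rich libraries of E28 and between 0 and 0.852 in those of E37. It fell by 2.03 ± 0.56 on the log2 scale between them (adjusted p = 0.00914), and the call was lost when only those libraries were fitted (adjusted p = 0.0534).

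OTX2-AS-1 fell from the inner to the outer germinal layers. OTX2 is a homeobox gene of the anterior neural plate that is also expressed in the choroid plexus. The transcript was at 9.16 and 15.3 CPM in the VZ of E28, 1.84 and 9.07 in the ISVZ, and 0.138 and 0.232 in the OSVZ. The germinal layers of E28 exceeded the neuron-rich layers by 4.98 ± 0.83 (adjusted p = 3.79e-05), although the libraries overlapped. The VZ exceeded the mean of both subventricular zones by 3.59 ± 0.90 (adjusted p = 0.00822), and the OSVZ lay below the ISVZ without overlap (log2 fold change -4.87 ± 1.27, adjusted p = 0.0160). Of all tested members 7 were called between VZ and subventricular zones at E28 (10.4%, beside 12.7% of all features and 2.79% of LINC and AS features, 0.96% higher and 1.83% lower), 2 higher and 5 lower in the VZ. Without VZ replicate 2 that count was 3, as it was with the libraries of a class pooled. Between OSVZ and ISVZ at E28, 0 were higher and 4 lower (5.97%, beside 8.94% and 1.31%, the latter 0.757% higher and 0.554% lower), and the count was 0 without OSVZ replicate 1, 1 without ISVZ replicate 1 or OSVZ replicate 2, and 3 without ISVZ replicate 2. For OTX2-AS-1 the first call was lost without OSVZ replicate 1 (adjusted p = 0.0512) or VZ replicate 2 (0.073), and it did not pass with the libraries of a class pooled into 1 group (2.12, adjusted p = 0.526), an alternative chosen after seeing the data. The second was lost without either OSVZ library (0.161 and 0.132) or without ISVZ replicate 2 (0.181).

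By E42 the level of OTX2-AS-1 in the VZ was 0.178 CPM, while 1 ISVZ library held 1.74 and the other 0.120. Its germinal difference at E42 (log2 fold change 2.60 ± 0.88, adjusted p = 0.0280) was lost without ISVZ replicate 2, OSVZ replicate 2, IZ replicate 1 or MZ replicate 2, with adjusted p from 0.0528 to 0.216, and with the class pooled (0.119). The same transcript was also higher in the MZ than in the CP, at 0.278 and 0.838 against 0 to 0.179 CPM at E37 (4.32 ± 1.29, adjusted p = 0.0219). It was at 0.287 and 0.193 CPM in the MZ of E42 against 0 counts in the 4 CP libraries, at least 16.2-fold higher (adjusted p = 0.00915). The call at E37 was lost with the replicate number as a block (adjusted p = 1, log2 fold change 3.48), and without MZ replicate 3 (0.354) or CPi replicate 2 or 3 (0.0617 and 0.0584), and with only those libraries fitted (0.0675). That at E42 was lost without MZ replicate 1 (0.104).

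MEIS genes encode TALE-class homeodomain cofactors. MEIS1-AS-4 was at 0.0275 to 0.469 CPM in the 6 germinal libraries of E28 and at 0 in the 6 neuron-rich ones, at least 14.5-fold higher (adjusted p = 0.00119). MEIS2-AS-2 had 78 counts in the germinal and 3 in the neuron-rich libraries of E28, a ratio of 22.6 with a 95% counting interval of 7.47 to 112 (adjusted p = 6.40e-04). In all, 3 of the 9 tested MEIS members were higher and 1 lower in the germinal layers at E28, and 4 were higher at E42. Of those 4, MEIS1-AS-4, MEIS1-AS-5 and LINC-MEIS2-2 did not pass at E42 with the class pooled (adjusted p = 0.312, 0.132 and 0.159). The lower one was MEIS3-AS-1, at 0 to 0.0868 CPM in the germinal and 0.0645 to 0.794 in the neuron-rich libraries (log2 fold change -2.54 ± 0.84, adjusted p = 0.0171). Without VZ replicate 1 its adjusted p was 0.0512. MEIS1-AS-4 was also higher in the MZ than in the CP at E42, with 47 counts against 2, a ratio of 33.5 with a counting interval of 8.78 to 285 (adjusted p = 0.0268). Its MZ libraries were uneven, at 0.43 CPM in replicate 1 and 0.0965 in replicate 2, against 0 to 0.0241 in the CP. LINC-MEIS2-2 fell in the neuron-rich layers from 22 counts in the 6 libraries of E28 to 2 in the 10 of E37 (adjusted p = 0.0234). Values of MEIS1-AS-5 and LINC-MEIS2-2 are given here after they were seen.

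MEIS2-AS-3, with the second highest mean CPM, differed between replicate numbers at E28 and E37 in every layer they shared. MEIS2 is expressed in the lateral ganglionic eminence, the striatum and upper cortical layers. At E28, replicate 1 and replicate 2 were at 68.9 and 173 CPM in the VZ, 64.3 and 182 in the ISVZ, 63.6 and 178 in the OSVZ, 30.6 and 95.8 in the IZ, 20.2 and 76.3 in the CP and 4.64 and 57.2 in the MZ. Replicate 2 was therefore higher in 6 of 6 layers, by 2.52 to 12.3 times. At E37, replicate 3 exceeded replicate 2 in 4 of 4 layers, by 2.34 to 6.65 times. At E42 replicate 2 was at 0.791 to 1.21 times replicate 1, and the transcript was at 133 CPM in the VZ, 171 and 177 in the ISVZ, and 207 and 172 in the OSVZ, against 39.9 and 45.3 in the IZ and 12.5 to 16.0 in the CP and MZ. The germinal libraries of E42 did not overlap with the neuron-rich ones (log2 fold change 3.01 ± 0.64, adjusted p = 0.00136). At E28 the germinal difference of 1.42 did not pass (adjusted p = 0.0869), and with the replicate number as a block it was 1.65 (adjusted p = 1.36e-04).

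**Figure D2:**
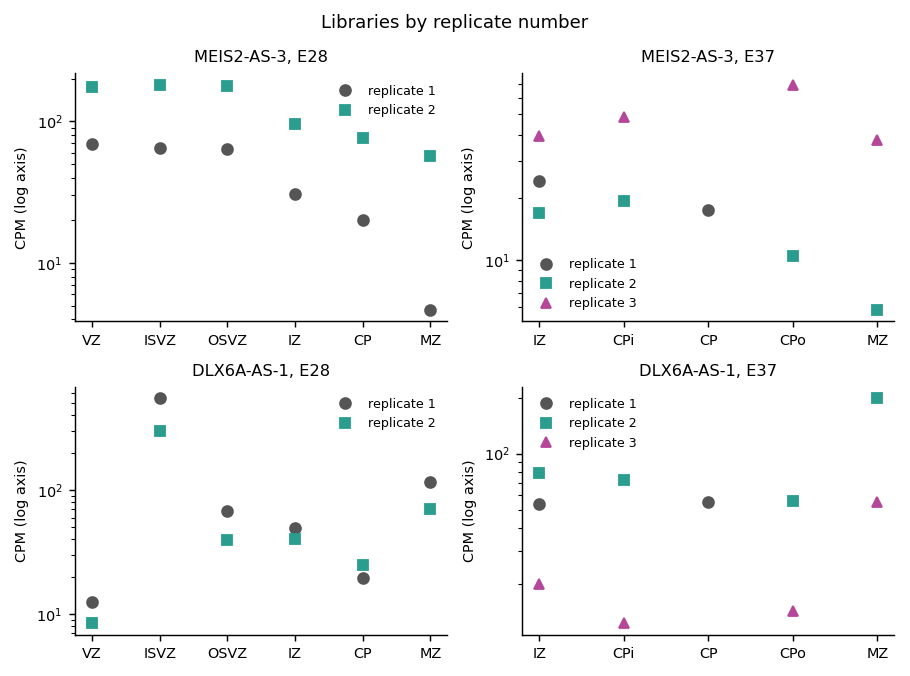
CPM of MEIS2-AS-3 and DLX6A-AS-1 in each library of E28 and E37, with layers on the horizontal axis, a log vertical axis and replicate numbers as symbols. MEIS2-AS-3 was higher in replicate 2 than in replicate 1 in all 6 layers of E28 and higher in replicate 3 than in replicate 2 in all 4 shared layers of E37, where DLX6A-AS-1 was lower in replicate 3.

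Transcripts named after the interneuron genes DLX5, DLX6 and LHX6 were low in the VZ of E28. DLX genes are switched on in subpallial progenitors and migrating interneurons, and LHX6 in interneurons of the medial ganglionic eminence. DLX6A-AS-1 was at 12.4 and 8.41 CPM in the VZ of E28, 552 and 296 in the ISVZ, 67.6 and 39.3 in the OSVZ, 49.6 and 40.2 in the IZ, 19.4 and 25.0 in the CP, and 115 and 70.2 in the MZ. Both ISVZ libraries lay above all others of the stage and both VZ libraries below. The VZ was lower than the subventricular zones (log2 fold change -3.86 ± 0.79, adjusted p = 0.00235), and the OSVZ was lower than the ISVZ (-2.99 ± 0.79, adjusted p = 0.0227). The first of these calls was lost without VZ replicate 2 (adjusted p = 0.0578). The second was lost without ISVZ replicate 1 (0.138), OSVZ replicate 1 (0.0877) or OSVZ replicate 2 (0.225).

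By E42 the same layers held more of it. DLX6A-AS-1 was at 1154 and 1153 CPM in the ISVZ, 207 and 228 in the OSVZ and 80.3 in the VZ. Its rise in the subventricular zones from E28 to E42 was 1.74 ± 0.54 on the log2 scale (adjusted p = 0.0260). Each layer was higher at E42 than at E28 in every library, although the pooled layers overlapped. Of all tested members, 10 rose and 0 fell in this comparison (14.9%, beside 22.2% of all features and 8.11% of LINC and AS features, 6.82% higher and 1.29% lower), and the count was 4 without ISVZ replicate 2 of E28, 6 without either OSVZ library of E28, 5 without OSVZ replicate 2 of E42 and 4 with the class pooled. The rise of DLX6A-AS-1 passed neither without replicate 2 of the ISVZ or OSVZ of E28 (adjusted p = 0.105 and 0.101) nor without ISVZ replicate 1, ISVZ replicate 2 or OSVZ replicate 2 of E42 (0.0558, 0.0513 and 0.059), nor with the class pooled (0.231) or no filter on low counts (0.0518). At E42 the germinal layers exceeded the neuron-rich layers by 1.60 ± 0.44 (adjusted p = 0.00871), although the libraries overlapped. With the replicate number as a block, the E28 difference of 0.45 (adjusted p = 0.493) became 0.41 (adjusted p = 0.013), and the IZ against CP difference of E28 also passed (0.00584, against 0.588 without the block).

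DLX5-AS-1, counted far less often, followed the same order of layers. It was at 0.0638 and 0.124 CPM in the VZ of E28, 3.89 and 2.65 in the ISVZ, and 0.303 and 0.955 in the OSVZ. At E42 the corresponding values were 0.889 in the VZ, 11.6 and 11.1 in the ISVZ, and 3.83 and 4.06 in the OSVZ. The VZ of E28 was lower than the subventricular zones (log2 fold change -3.85 ± 0.75, adjusted p = 4.42e-04), and the subventricular zones rose by 2.22 ± 0.47 to E42 (adjusted p = 7.24e-04). The rise did not pass with the class pooled (0.109). At E42 the germinal layers exceeded the neuron-rich layers by 2.52 ± 0.39 (adjusted p = 6.61e-06), with overlapping libraries. The OSVZ of E28 lay below the ISVZ (-2.38 ± 0.68, adjusted p = 0.0225), a call lost without ISVZ replicate 1 (0.136) or OSVZ replicate 1 (0.277), and with only those libraries fitted (0.0684).

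LHX6-AS-1 had 0 counts in both VZ libraries of E28 and was uneven in the ISVZ, at 1.01 and 0.0305 CPM, beside 0.165 and 0.637 in the OSVZ and 2.15 and 3.84 in the MZ. The germinal layers of E28 as a whole were lower than the neuron-rich ones (log2 fold change -3.59 ± 0.79, adjusted p = 4.92e-04), with overlapping libraries, and the difference was -2.27 with the class pooled (0.0584). At E42 it was at 0.207 CPM in the VZ, 2.76 and 3.78 in the ISVZ, and 0.619 and 2.56 in the OSVZ. Its rise in the subventricular zones was 2.33 ± 0.71 (adjusted p = 0.0168) and was lost without OSVZ replicate 1 or ISVZ replicate 2 of E28 or OSVZ replicate 2 of E42 (adjusted p = 0.0931, 0.074 and 0.147), with the class pooled (0.1) and with only those libraries fitted (0.0567). Against the floor over both VZ libraries, the subventricular zones of E28 were at least 10.4-fold higher for LHX6-AS-1 (adjusted p = 0.00662) and at least 6.19-fold higher for LHX6-AS-2 (adjusted p = 0.0435). The call for LHX6-AS-1 was lost without either VZ library (0.072 and 0.0962) or ISVZ replicate 1 (0.135), and with only those libraries fitted (0.0938). That for LHX6-AS-2 was lost without either VZ library, ISVZ replicate 1 or OSVZ replicate 1 (0.194 to 0.256). With the class pooled neither passed (0.0624 and 0.0949).

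The germinal against neuron-rich difference itself changed between stages for 4 members (2 higher and 2 lower at E42, 5.97%, beside 15% of all features and 4.85% of LINC and AS features, 3.76% higher and 1.1% lower). DLX5-AS-1 rose by 2.46 ± 0.57 (adjusted p = 0.00310) and LHX6-AS-1 by 4.12 ± 1.00 (adjusted p = 0.00475) in the germinal layers relative to the neuron-rich layers. With the class pooled neither passed (0.154 and 0.0654), and 1 member was called. Without the E42 VZ library the count of 4 became 8, and with the replicate number as a block it became 10, with 5 in each direction. DLX6A-AS-1 was among those added by the block, with a change of 1.18 (adjusted p = 4.34e-05), against 1.15 without it (adjusted p = 0.26). The block also joined libraries of E42, which were not taken as paired.

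Noncoding features named after interneuron genes outside these families (GAD1, GAD2, SLC32A1, ERBB4, SST and NPY, 26 features, 8 tested) were summed beside these transcripts. Their sum was 1.60 to 1.95 CPM in the VZ of E28, 9.01 to 14.2 in the ISVZ, 2.03 to 3.16 in the OSVZ and 13.5 to 16.1 in the MZ, and at E42 reached 39.2 to 53.4 in the inner and 10.9 to 23.1 in the outer subventricular zone. The features of GAD1, GAD2 and SLC32A1 carried most of the sum in the ISVZ, with LINC-SLC32A1-1 at 5.77 and 3.01 CPM at E28 and 16.1 and 24.2 at E42. Others in the list had another order, since LINC-NPY-1 was at 0.925 and 1.01 CPM in the VZ of E28 against 0.649 and 0.670 in the ISVZ, and SST-AS-1 was at 0.216 and 0.0305 in the ISVZ against 1.26 and 1.11 in the IZ. The part of interneurons in the layer differences was not tested.

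The same transcripts were compared between MZ and CP. DLX6A-AS-1 was at 200 and 55.0 CPM in the MZ of E37 and at 12.2 to 72.5 in the 5 CP libraries, so that the lower MZ library lay within the range of the CP. Replicate 2 exceeded replicate 3 in 4 of 4 layers, with replicate 3 at 0.169 to 0.276 times replicate 2. Its E42 levels were 195 and 149 CPM in the MZ and 43.8 to 61.9 in the CP. The MZ against CP differences of 2.06 (E28), 1.62 (E37) and 1.73 (E42) did not pass (adjusted p = 0.113, 0.0629 and 0.0623). With the block they were 1.97 (adjusted p = 4.86e-06) at E28 and 1.75 (adjusted p = 4.47e-07) at E37.

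DLX5-AS-1 was higher in the MZ than in the CP at E28 (log2 fold change 3.03 ± 0.74, adjusted p = 0.00846), E37 (1.78 ± 0.58, adjusted p = 0.0291) and E42 (2.55 ± 0.55, adjusted p = 0.00118). Its MZ libraries were at 1.06 and 2.65, at 0.778 and 0.865, and at 1.79 and 1.54 CPM, each pair above every CP library of its stage. The call at E28 was lost without either CP library or MZ replicate 2 (adjusted p = 0.0603 to 0.0795) and when only those libraries were fitted (0.238). That at E37 was lost without either MZ library or CPi replicate 3 (0.0684 to 0.209) and when only those libraries were fitted (0.182). LHX6-AS-1 was at 1.78 and 1.07 CPM in the MZ of E37 against 0 to 0.404 in the CP (3.00 ± 0.81, adjusted p = 0.00902), lost without MZ replicate 2 (0.0678) and with only those libraries fitted (0.0561). At E42 it was at 1.90 and 0.965 against 0.213 to 0.361 CPM (2.38 ± 0.80, adjusted p = 0.0387), lost without any 1 of the 6 libraries (0.0642 to 0.346).

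**Figure D3:**
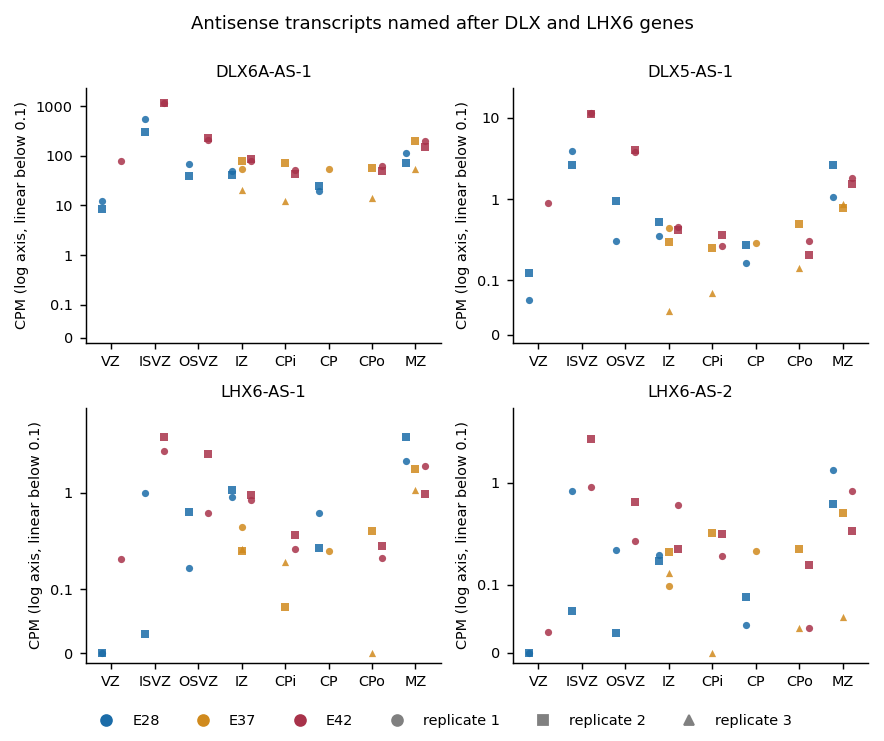
CPM of DLX6A-AS-1, DLX5-AS-1, LHX6-AS-1 and LHX6-AS-2 in each library by layer, with stages as colours and replicate numbers as symbols; the vertical axis is logarithmic and linear below 0.1 CPM. The ISVZ libraries of E42 held the highest levels of DLX6A-AS-1 (1154 and 1153 CPM), and MZ libraries lay above most CP libraries.

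LINC-LHX5-1 was a transcript of the MZ. LHX5 is a LIM-homeobox gene of Cajal-Retzius cells and their source regions. LINC-LHX5-1 was at 123.1 and 77.1 CPM in the MZ of E28, 30.5 and 67.5 in that of E37, and 11.9 and 18.9 in that of E42. It was at 1.93 and 1.05 CPM in the CP of E28 and at most 0.791 in any other library, so the 6 MZ libraries stood apart from the 29 others. The MZ exceeded the CP by 6.08 ± 0.67 on the log2 scale at E28 (adjusted p = 5.23e-06), 8.18 ± 0.53 at E37 (adjusted p = 2.00e-10) and 8.81 ± 0.65 at E42 (adjusted p = 1.40e-09). These calls held in each alternative run for them and without any 1 library. At E28 the germinal layers were lower than the neuron-rich layers by a log2 fold change of -5.76 ± 0.57 (adjusted p = 9.84e-09), although the libraries overlapped.

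Its level in the neuron-rich layers fell from stage to stage. The mean over IZ, CP and MZ fell by 1.60 ± 0.39 from E28 to E37 (adjusted p = 0.00433) and by 3.13 ± 0.64 from E37 to E42 (adjusted p = 0.00140). Both means give each layer equal weight on the log scale, and with the libraries of a class pooled into 1 group neither passed (adjusted p = 0.468 and 0.648). The pooled changes were -1.77 and -1.38. Both IZ libraries of E42 were at 0, and the CP of E42 was at 0 to 0.106 CPM. Within the CP and the IZ of E28 the CP was higher, at 1.93 and 1.05 against 0.193 and 0.276 CPM (IZ over CP -2.64 ± 0.71, adjusted p = 0.0257). That call was lost without CP replicate 1 (0.159) or without either IZ library (0.24 and 0.128), and with only those libraries fitted (0.134). The VZ of E28 held 45 counts of LINC-LHX5-1, at 0.415 and 0.791 CPM, and the subventricular zones 2 counts, a ratio of 41.2 with a counting interval of 10.8 to 351 (adjusted p = 2.18e-04), and this did not pass with the class pooled (0.61).

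LINC-LHX1-4, named after the related gene LHX1 and described here after its values were seen, had few counts in the same layer. It was at 0.303 and 1.01 CPM in the MZ of E28, 0.167 and 0.865 in that of E37, and 0.211 and 0.338 in that of E42, and at most 0.0449 in any other library. At E42 its MZ level was at least 13.8-fold that of the CP (adjusted p = 0.0152). At E37 it had 36 counts in the MZ and 1 in the CP, a ratio of 84.8 with a counting interval of 14.3 to 3441 (adjusted p = 0.0125), and with the block that test gave an adjusted p of 1.

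LINC-LHX5-6, which carries the same gene name, had another pattern. It had 0 counts in the 6 germinal libraries of E28 and 1 count in the 5 of E42. It reached 0.0432 to 1.17 CPM in the IZ of E37, 0.0357 to 0.971 in the CP of E37 and 1.00 and 1.01 in the CPi of E42. At E42 its neuron-rich layers held 196 counts, a ratio of 99.1 with a counting interval of 17.6 to 3932 (adjusted p = 4.69e-04). It rose by 3.06 ± 0.95 in the neuron-rich layers from E28 to E37 (adjusted p = 0.0219), and not with the class pooled (0.0948).

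Features named after the Cajal-Retzius genes RELN, TP73, CALB2 and NDNF (16 features, 7 tested) summed to 9.74 to 10.1 CPM in the MZ and 6.14 to 7.55 in the CP at E28, to 6.62 to 8.31 and 3.29 to 4.57 at E37, and to 4.20 to 4.85 and 4.79 to 6.34 at E42. Most of each sum came from LINC-TP73-1, at 5.92 and 7.37 CPM in the MZ and 7.30 and 5.87 in the CP of E28. RELN-AS-5, named after the defining marker, was at 1.88 and 0.662 CPM in the MZ of E28, 1.33 and 1.07 in that of E37 and 0.268 and 0.917 in that of E42, and at most 0.122 in any other library. RELN-AS-4 was at 1.06 and 1.76 CPM in the MZ of E28 against 0 and 0.108 in the CP. Its MZ libraries were uneven at E37, at 0.0556 and 2.15 CPM, and at 0.0287 and 0 at E42. The part of Cajal-Retzius cells in the level of LINC-LHX5-1 was not tested.

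Across all tested members, 2 were higher and 0 lower in the MZ than in the CP at E28 (2.99%, beside 9.22% of all features and 1.7% of LINC and AS features, 0.914% higher and 0.784% lower). At E37, 9 were higher and 0 lower (13.4%, beside 18.7% and 4.86%, the latter 3.37% higher and 1.5% lower), and at E42, 10 were higher and 1 lower (16.4%, beside 17.3% and 3.54%, the latter 2.93% higher and 0.618% lower). With the block, 7 were called at E28 and 7 at E37, and those added at E28 were DLX6A-AS-1, LHX6-AS-2, LINC-POU3F3-5, LINC-POU3F3-12 and LINC-POU3F3-22 (adjusted p = 4.86e-06 to 0.0444). The count at E28 was 1 without CP replicate 1. At E37 it was 4 without MZ replicate 3 and 5 without CPi replicate 3. The E42 count was between 4 and 6 without any 1 of the 6 libraries, the lowest without MZ replicate 1. LINC-IRX6-1, described after its values were seen, was called at E37 from 8 counts against 0, at least 6.28-fold higher (adjusted p = 0.0495), and with the block it did not pass (0.137). All 8 counts lay in MZ replicate 3, at 0.210 CPM, and MZ replicate 2 was at 0. LINC-POU3F3-5 was called at E42 with overlapping libraries (1.34 ± 0.48, adjusted p = 0.0493).

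POU genes encode factors with a POU domain and a homeodomain, and 27 of the 67 tested members carry their names. POU3F3 (BRN1) is expressed in cortical progenitors and in upper-layer neurons, and 24 LINC transcripts carry its name, of which 17 were tested. Whether they are separate genes or pieces of fewer transcripts is not given in the sources used here. Their sum was 111 to 128 CPM in the VZ of E28, 87.5 to 104 in the ISVZ, 76.0 to 100.2 in the OSVZ, 39.1 to 62.3 in the IZ, 11.7 to 19.5 in the CP and 24.3 to 24.7 in the MZ. At E42 the sum was highest in the OSVZ, at 122.5 to 145.9 CPM, and the CPo held 68.9 to 71.4 against 28.7 to 29.7 in the CPi.

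Of the 17 tested, 13 were higher in the germinal layers at E28 and 8 at E42, and 0 were lower at either stage. LINC-POU3F3-1, with the highest mean of them, was at 73.1 and 61.5 CPM in the VZ of E28, 42.7 to 68.6 in the subventricular zones, 30.3 and 45.6 in the IZ, 10.8 and 14.8 in the CP, and 19.1 and 15.7 in the MZ. It was higher in the germinal layers by 1.61 ± 0.17 at E28 (adjusted p = 8.48e-09) and by 0.89 ± 0.17 at E42 (adjusted p = 1.69e-04). LINC-POU3F3-4, described after its values were seen, was at 15.6 and 31.5 CPM in the VZ, 10.2 and 16.2 in the ISVZ, 4.13 and 10.0 in the OSVZ, and 0.082 to 4.39 in the neuron-rich layers of E28. Its difference was 3.76 ± 0.39 at E28 (adjusted p = 8.09e-09) and 2.40 ± 0.35 at E42 (adjusted p = 4.82e-06). The plot of the POU3F3 series shows estimates above 0 for 16 of the 17 at E28 and for 14 of the 17 at E42.

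**Figure D4:**
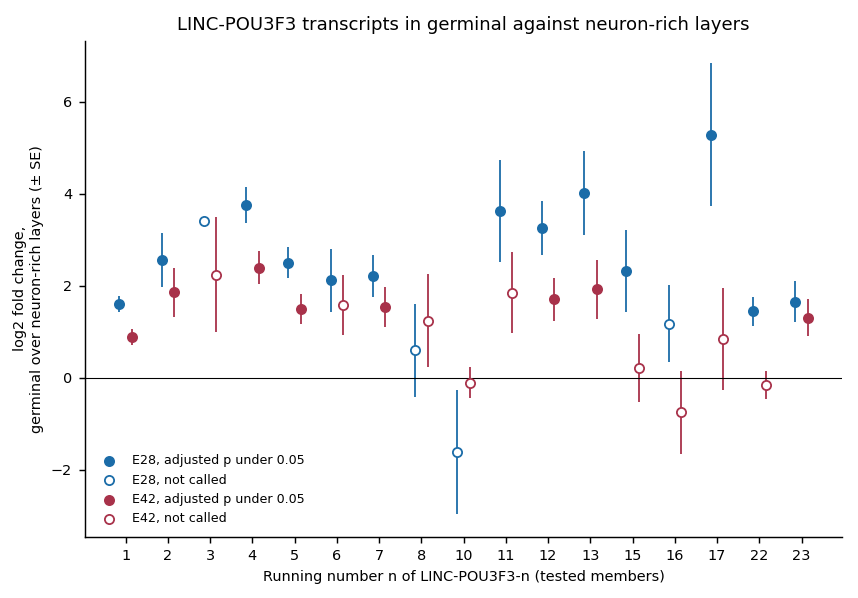
Log2 fold change of the 17 tested LINC-POU3F3 transcripts between germinal and neuron-rich layers at E28 and E42 (points), with the standard error (bars, not drawn where the unadjusted p was above 0.9), in the order of their running numbers. Filled points passed an adjusted p of 0.05, 13 at E28 and 8 at E42, all above 0. Of all tested LINC and AS features, 6.35% and 7.31% were called higher at these stages.

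Within the neuron-rich layers of E28, 4 POU3F3 transcripts were higher in the IZ than in the CP, and these were all the members called in that direction (with 1 lower, 7.46%, beside 5.45% of all features and 0.655% of LINC and AS features, 0.443% higher and 0.212% lower). LINC-POU3F3-1 differed by 1.57 ± 0.30 (adjusted p = 9.70e-04), and LINC-POU3F3-5, at 3.64 and 5.18 CPM against 0.205 and 1.03, by 2.78 ± 0.62 (adjusted p = 0.00418). LINC-POU3F3-4 differed by 2.65 ± 0.68 (adjusted p = 0.0169). LINC-POU3F3-12 had 27 counts in the IZ and 1 in the CP, a ratio of 27.6 with a counting interval of 4.55 to 1131 (adjusted p = 0.0299). The call for LINC-POU3F3-5 was lost without CP replicate 1 (0.0922) and that for LINC-POU3F3-12 without any 1 of the 4 libraries (0.0836 to 0.169). Without CP replicate 1, 1 member was called in all, without IZ replicate 1, 3 members, and without IZ replicate 2, 2 members. In a fit of these 4 libraries alone 0 members were called.

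Between the outer and inner CP of E37 and E42, 1 member was called (1.49%, beside 0.976% of all features and 0.12% of LINC and AS features, 0.0461% higher and 0.0738% lower). LINC-POU3F3-1 was at 26.0 and 30.2 CPM in the CPo and 14.7 and 26.3 in the CPi at E37, and at 34.9 and 41.6 against 14.3 and 16.4 at E42. At E37 the lower CPo library lay just below the higher CPi library. It was higher in the CPo by 0.88 ± 0.21 (adjusted p = 0.0321). The CPo library exceeded the CPi library of its number in 4 of 4 pairs, and the call was lost without any 1 of the 8 libraries but CPi replicate 3 of E37 (adjusted p = 0.0592 to 0.299). With the replicate number as a block 3 members passed, and LINC-POU3F3-5 (1.37, adjusted p = 0.00844) and LINC-POU3F1-1 (0.90, adjusted p = 0.0355) joined it. The pairs and the block took in E42, where the libraries were not taken as paired, although CPi and CPo of that stage deviated together (correlation 0.181).

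POU3F3 transcripts also changed with stage, and not alike. In the neuron-rich layers, 8 members rose and 3 fell from E28 to E37 (16.4%, beside 22.4% of all features and 11.4% of LINC and AS features, 3.42% higher and 7.99% lower), and 5 of the 8 were POU3F3 transcripts. LINC-POU3F3-22 was at 0.041 to 2.16 CPM in the 6 libraries of E28 and at 4.66 to 11.7 in the 10 of E37, with no overlap (2.60 ± 0.31, adjusted p = 5.28e-07). It reached 16.3 and 13.1 CPM in the CPo of E42. LINC-POU3F3-23, described after its values were seen, rose by 2.37 ± 0.43 in the same comparison (adjusted p = 2.19e-04). It also rose in the subventricular zones, from 0.688 to 1.91 CPM at E28 to 5.81 to 19.5 at E42 (3.23 ± 0.52, adjusted p = 4.63e-05). LINC-POU3F3-12 rose in the neuron-rich layers by 2.17 ± 0.57 (adjusted p = 0.00638), and not with the class pooled (0.13). The remaining risers of the series, described after their values were seen, were LINC-POU3F3-13 (3.24 ± 0.92, adjusted p = 0.0109) and LINC-POU3F3-15 (2.51 ± 0.87, adjusted p = 0.0366), and the latter did not pass with the block (0.139). With the block LINC-POU3F3-1, LINC-POU3F3-2, LINC-POU3F3-4, LINC-POU3F3-5 and LINC-POU3F4-1 also passed in this comparison (0.00517 to 0.0453), LINC-POU3F3-2 being named after its value was seen.

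The germinal excess of 2 POU3F3 transcripts was smaller at E42 than at E28. That of LINC-POU3F3-22 fell by 1.60 ± 0.44 (adjusted p = 0.0127), from a log2 fold change of 1.45 ± 0.32 at E28. That of LINC-POU3F3-1 fell by 0.72 ± 0.25 (adjusted p = 0.0483), a call lost in 18 of the 25 fits without 1 library (0.0514 to 0.129) and with DESeq2 size factors (-0.68, adjusted p = 0.0653). With the libraries of a class pooled neither passed (0.0564 and 0.469).

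LINC-POU3F4-1, named after a POU gene of the ganglionic eminences and ear, was germinal at both stages. It was at 3.51 and 9.20 CPM in the VZ, 5.81 and 15.7 in the ISVZ, and 1.65 and 4.83 in the OSVZ of E28, and at most 1.04 in the neuron-rich layers (5.23 ± 0.66, adjusted p = 4.71e-07). At E42 the 5 germinal libraries held 4.41 to 7.02 CPM and the 8 others at most 1.10 (3.42 ± 0.55, adjusted p = 2.13e-05). In the MZ of E37 it was at 0.723 and 1.68 CPM, above the 0 to 0.429 of the CP (2.47 ± 0.79, adjusted p = 0.0291).

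POU3F1 (OCT6, SCIP) is known from projection neurons and Schwann cells. LINC-POU3F1-1 was at 0.893 and 1.21 CPM in the VZ of E28, 11.0 and 14.5 in the ISVZ, 13.4 and 34.4 in the OSVZ, and 11.1 to 30.0 in the neuron-rich layers. The VZ was lower than the subventricular zones (-4.04 ± 0.56, adjusted p = 1.85e-05), without overlap. The germinal layers as a whole were also lower (log2 fold change -1.64 ± 0.30, adjusted p = 1.33e-04), and with the class pooled the difference was -0.80 (adjusted p = 0.297). At E42 its highest levels were in the CPo, at 63.4 and 50.9 CPM, against 28.3 and 34.0 in the CPi. The MZ lay below the CP at 16.4 and 11.5 CPM (-1.59 ± 0.46, adjusted p = 0.0190), a call lost without MZ replicate 1 (0.0676) or replicate 2 (0.212).

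POU2F1-AS-2, named after the widely expressed OCT1 gene and described after its values were seen, had 30 counts in the germinal layers of E28 and 0 in the neuron-rich layers, at least 8.71-fold higher (adjusted p = 0.0443), and with the block its adjusted p was 0.0524. It was also higher there at E42 by 3.64 ± 1.06 (adjusted p = 0.00970), with overlapping libraries.

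NKX2-2 is expressed in ventral progenitors and in the oligodendrocyte lineage. NKX2-2-AS-1 had 0 counts in the VZ, ISVZ, OSVZ, CP and MZ of E28 and was at 0.0645 and 0.138 CPM in the IZ. At E42 it was at 1.22 and 1.14 CPM in the IZ, 0.580 and 0.846 in the OSVZ, 0.0959 and 0.161 in the ISVZ, 0.612 and 0.820 in the MZ, and 0 to 0.217 in the CP. In the subventricular zones it had 0 counts at E28 and 62 at E42, at least 16.6-fold higher (adjusted p = 7.84e-04), and that call held in each alternative run for it and without any 1 library.

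The IZ exceeded the CP for NKX2-2-AS-1 at both later stages. At E37, where it was the only member called (1.49%, beside 3.85% of all features and 0.609% of LINC and AS features, 0.443% higher and 0.166% lower), it had 21 counts in the IZ and 3 in the CP, a ratio of 13.7 with a counting interval of 4.1 to 71.8 (adjusted p = 0.0208). That call was lost without either CPo library or IZ replicate 3 (0.0575 to 0.19) and with only those libraries fitted (0.149), and with the block 2 members were called, the other being LINC-POU3F2-1, named after its value was seen (3.88, adjusted p = 0.0393). The count was 0 without either CPo library and 2 without IZ replicate 2. At E42 the difference was 3.94 ± 0.96 (adjusted p = 0.00767), and 3 members were higher and 0 lower (4.48%, beside 11.9% and 2.07%, the latter 1.54% higher and 0.526% lower). The others were LINC-POU3F3-4 (1.89 ± 0.50, adjusted p = 0.0123) and PAX6-AS-1, with 14 counts in the IZ and 1 in the CP (adjusted p = 0.0176). The call for PAX6-AS-1 was lost without IZ replicate 2, either CPi library or CPo replicate 2 (0.0551 to 0.287), and the count of 3 was 1 without CPi replicate 1 or IZ replicate 2.

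In the MZ, NKX2-2-AS-1 was above the CP at E37, with 22 counts against 3, a ratio of 17.3 with a counting interval of 5.19 to 90.1 (adjusted p = 0.00512), and at E42 (3.21 ± 0.96, adjusted p = 0.0217). The first call was lost without MZ replicate 3 (0.0539) and with only those libraries fitted (0.0875). The second was lost without either MZ or CPi library or CPo replicate 2 (0.0539 to 0.11) and with no filter on low counts (0.0616).

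The other transcripts of this gene had fewer counts. LINC-NKX2-2-2, described after its values were seen, and LINC-NKX2-2-3 had 0 counts in all 12 libraries of E28, and 27 and 38 in the subventricular zones of E42, at least 7.23-fold and 10.2-fold higher (adjusted p = 0.0439 and 0.0353). LINC-NKX2-2-2 did not pass with the block (0.0515) or with the class pooled (0.0539). LINC-NKX2-3-2, named after a gene of gut and spleen development, rose there by 4.19 ± 1.18 (adjusted p = 0.0106), from 7 to 61 counts, and its call was lost without either ISVZ library of E28 (0.0507 and 0.0538) and with the class pooled (0.114). Features named after OLIG1, OLIG2, PDGFRA and SOX10 (6 features, 4 tested, with those of OLIG1 and PDGFRA too low to test) summed to 0.608 to 0.944 CPM in the subventricular zones of E28. In E42 they summed to 12.8 to 20.5 CPM in the OSVZ, 2.60 to 3.62 in the ISVZ, 7.19 to 13.4 in the IZ, 4.07 to 5.89 in the MZ and 0.408 to 1.93 in the CP. LINC-SOX10-1 carried most of the sum there, at 16.2 and 8.86 CPM in the OSVZ and 4.37 and 10.1 in the IZ. OLIG2-AS-1 and SOX10-AS-1 were also higher in the OSVZ of E42 than of E28. LINC-SOX10-2 was not, at 0.66 and 0.174 CPM in the OSVZ of E28 and 0.348 and 0.249 in that of E42. The part of the oligodendrocyte lineage in the levels of the NKX2-2 transcripts was not tested.

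IRX genes encode TALE homeodomain factors of neural patterning, and IRX6 is known from the retina. LINC-IRX6-2 was at 0.128 and 0.173 CPM in the VZ and 0.216 and 0.0609 in the ISVZ of E28, and at 0 in the other 8 libraries of that stage. At E37 it was at 4.56 and 1.70 CPM in the MZ and at most 0.214 elsewhere. Its E42 levels were 5.89 CPM in the VZ, 1.87 and 1.45 in the ISVZ, 2.17 and 4.06 in the OSVZ, 2.39 and 1.45 in the MZ, and 0.0257 to 0.453 in the IZ and CP. The germinal layers of E42 exceeded the neuron-rich layers by 2.63 ± 0.46 (adjusted p = 6.20e-05), with overlapping libraries, and not with the class pooled (0.136).

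The rise of LINC-IRX6-2 in the subventricular zones was 6.67 ± 0.84 (adjusted p = 2.17e-06), from 8 to 378 counts and without overlap, and with the class pooled it was 5.12 (adjusted p = 0.0529). The MZ exceeded the CP by 5.61 ± 0.72 at E37 (adjusted p = 4.37e-06) and by 3.68 ± 0.67 at E42 (adjusted p = 2.60e-04), and both calls held in each alternative run for them and without any 1 library. In the neuron-rich layers it had 0 counts at E28 and 161 at E37, at least 37.1-fold higher (adjusted p = 4.72e-04), a call lost without CPi replicate 2 of E37, which left that group at 0 (adjusted p = 1). From E37 to E42 its mean log level over the neuron-rich layers was higher by 1.43 ± 0.49 (adjusted p = 0.0465), while its mean CPM was 0.836 against 1.08. That call was lost in 13 fits without 1 library (0.0516 to 0.197), with the block (0.0833), with no filter on low counts (0.0785) and with DESeq2 size factors (0.0526), and with the class pooled the change was -0.000317. At E28 it had 0 counts in the OSVZ and 8 in the ISVZ, at least 3.12-fold lower in the OSVZ (adjusted p = 0.0448), and this was lost without either OSVZ library or ISVZ replicate 1 (0.207 to 0.308), and with no filter on low counts (0.0665).

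**Figure D5:**
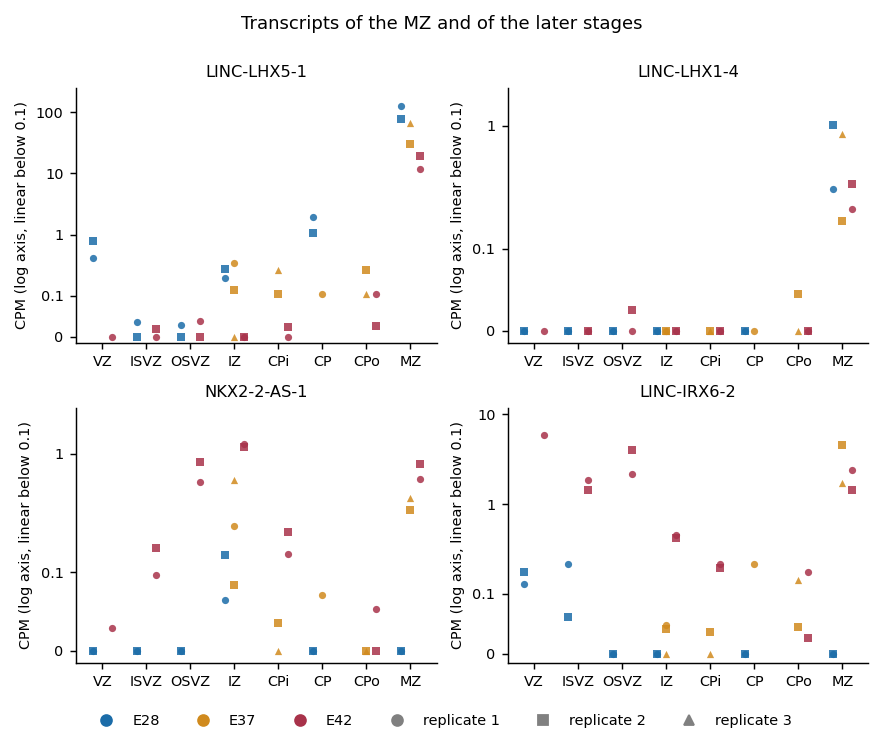
CPM of LINC-LHX5-1, LINC-LHX1-4, NKX2-2-AS-1 and LINC-IRX6-2 in each library by layer, with stages as colours and replicate numbers as symbols; the vertical axis is logarithmic and linear below 0.1 CPM. LINC-LHX5-1 lay between 11.9 and 123.1 CPM in the 6 MZ libraries, and NKX2-2-AS-1 and LINC-IRX6-2 were at or near 0 at E28.

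From E37 to E42, 2 members rose and 1 fell in the neuron-rich layers (4.48%, beside 15.6% of all features and 6.61% of LINC and AS features, 5.56% higher and 1.04% lower). CUX2-AS-1, antisense to the cut-family gene of upper-layer neurons and their progenitors, was at 0 to 0.487 CPM in the 10 libraries of E37 and 0.0482 to 0.887 in the 8 of E42. Within E42 it was at 0.727 and 0.489 in the CPo and 0.0715 and 0.0482 in the CPi. It rose by 2.79 ± 0.68 (adjusted p = 0.00523), and not with the class pooled (0.0741). MEIS3-AS-1 rose in the subventricular zones from E28 to E42, from 8 to 84 counts (3.14 ± 0.96, adjusted p = 0.0174). Its call was lost without any 1 of the 4 libraries of E28, or without ISVZ replicate 1 or OSVZ replicate 2 of E42 (0.0558 to 0.131).

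Between OSVZ and ISVZ of E42, 0 members were called by edgeR's quasi-likelihood test (beside 0.774% of all features and 0.111% of LINC and AS features, 0.0554% higher and 0.0554% lower), with 5 at an unadjusted p below 0.05 and 1 called by the DESeq2 Wald test. DLX6A-AS-1 differed there by -2.41 (adjusted p = 0.263), at 207 and 228 against 1154 and 1153 CPM, without overlap. With the replicate number as a block the difference was -2.40 (adjusted p = 3.68e-06), although the libraries of E42 shared only a number.

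LINC-DLX2-2 had 0 counts in every E28 library and was at 0.584 and 0.145 CPM in the MZ of E42 against 0 in the CP, at least 30.4-fold higher (adjusted p = 0.0418). Its highest group mean was in the VZ of E42, at 0.385 CPM in 1 library. It was at 0 and 0.251 CPM in the ISVZ and 0 and 0.149 in the OSVZ of that stage. The other transcripts with the highest means in their families, EMX2-AS-2, LINC-PAX2-4, PAX2-AS-2, LINC-IRX3-1, IRX5-AS-1, LINC-CUX2-1 and CUX1-AS-4, had mean levels of 0.0227 to 0.187 CPM and were called in none of the comparisons.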

How the data were processed

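Per the labels and the study's methods, poly(A)-selected RNA of microdissected layers was sequenced, reads were mapped to the tree shrew genome with HISAT2, and the authors deposited HTSeq counts per feature of the TS_3.0 annotation, not normalized and 1 file per library. SAMtools is also named in the submitters' processing notes. Lines for reads on no feature (8.56% to 14.1% of a library) and for ambiguous reads (15.0% to 19.1%) stayed out of library sizes and tests. One of 36 files was a repeat and was left out, and no column of per-sample values was left unused.

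From these counts, 26858 features passed edgeR's filterByExpr (minimum count 10) and were fitted with edgeR 4.0.16 (R 4.3.3, TMM factors 0.881 to 1.13) by its quasi-likelihood test over 35 libraries in 18 groups, with 17 residual degrees of freedom. P-values were adjusted by Benjamini-Hochberg over all features tested in a comparison, and calls were made at 0.05. Groups with 1 library (CP of E37 and VZ of E42) were assumed to vary like the others. Class means gave each layer equal weight on the log scale. The self-test ran on simulated counts. Counting intervals are exact 95% intervals, and a fold against a group at 0 takes 3 counts over the group as the floor. Intervals and floors cover counting error only. CPM values use TMM-scaled library sizes, and a standard error is the log2 fold change divided by the root of its quasi-likelihood F.

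Alternatives were DESeq2 1.42.0 size factors and its Wald test, no filter on low counts, the repeated file kept, the compared groups alone, the replicate number as a block, each library left out, and, added after seeing the data, the libraries of a class pooled. A minimum count of 5 was tried only for how many members pass the filter. The titles give replicate numbers shared by layers. Libraries of 1 number deviated together (log2 CPM, prior count 2) from their group means at E28 (correlation 0.167 to 0.265 in 15 of 15 layer pairs) and E37 (0.147 to 0.272 in 6 of 6), so the numbers were taken to pair libraries at those stages. At E42, 10 of 15 pairs were above 0.1 (-0.117 to 0.232), and the 5 others all included the OSVZ. The numbers were not taken to pair libraries at that stage. The main fit held no block, so its calls and non-calls at E28 and E37 leave the pairing out. The fit with the block also joined libraries of 1 number at E42. At E28 the block brought CUX2-AS-1 and LINC-POU3F3-4 past 0.05 between VZ and subventricular zones (adjusted p = 0.0453 and 0.00312). It did the same for LINC-POU3F4-1 between OSVZ and ISVZ (0.0462).

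Members with values are the up to 3 with the highest mean CPM in each family among those tested, and in each comparison the up to 2 called members with the largest change in each direction at a mean CPM of at least 0.1. Others are said to be named after their values were seen. One member that the rule names and 1 marker list are not reported here. Members, role lists and marker lists were chosen with earlier results of these data known. No sequence or coordinate is given, since no genome of the files' build was used here.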

Additional observations from a re-analysis of the deposited data

Results flagged for a closer look

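Of the members whose germinal against neuron-rich difference was tested between E42 and E28, 4 passed at an adjusted p below 0.05. The change was 2.46 for DLX5-AS-1 (adjusted p = 0.00310), 4.12 for LHX6-AS-1 (0.00475), -0.718 for LINC-POU3F3-1 (0.0483) and -1.60 for LINC-POU3F3-22 (0.0127), each on the log2 scale and as described above.

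In other comparisons every library of a member moved one way at 1 stage and the opposite way at another. These were noticed first and the stage difference was tested afterwards, and none passed. Between OSVZ and ISVZ, the difference at E42 less that at E28 was 2.55 for LINC-EMX2-1 (adjusted p = 0.547), 1.94 for LINC-POU3F3-22 (0.169), 6.19 for LINC-IRX6-2 (0.0562) and 1.69 for LINC-POU3F3-5 (0.307). Between IZ and CP it was 3.26 for MEIS3-AS-1 (0.582), -1.97 for LINC-POU3F1-1 (0.232) and -2.34 for LINC-POU3F3-22 (0.149). Between MZ and CP it was -2.45 for LINC-POU3F3-22 (0.0773), and for LINC-POU3F4-1 the difference at E37 less that at E28 was 4.50 (0.359). No group held 4 or more libraries, so single libraries were not tested for standing apart.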

How the results depend on the processing

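Each alternative changed 1 choice, but fits of the compared libraries alone also filtered anew, so that 15 to 70 members were tested, and the Wald test replaced the whole method. With a minimum count of 5, 87 members passed the filter in place of 67, and no test was run on them. Over 74 named values and 1233 alternative values, 1043 kept direction and side of the threshold, 189 kept direction and no longer passed, and 1 reversed, LINC-IRX6-2 in the neuron-rich layers from E37 to E42, at -0.000317 with the libraries of a class pooled. Counts of called members between germinal and neuron-rich layers at each stage and from E28 to E37 stayed within 1.5 times in every alternative run for them. The causes were not tested. The share of all features called in each alternative is not given. The counts of members below are therefore not set against a shift over all features.

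Without a filter on low counts, the count became 7 (from 4) for the stage difference of the germinal excess, 7 (from 3) for IZ against CP at E42, 6 (from 2) for MZ against CP at E28 and 2 (from 1) for CPo against CPi. With the replicate number as a block these were 10, 9, 7 and 3, and the block gave 2 (from 1) for IZ against CP at E37 and 1 (from 0) for OSVZ against ISVZ at E42, where the libraries shared only a number. For germinal against neuron-rich layers the block changed the count by less than 1.5 times. The Wald test of DESeq2 gave 1 for OSVZ against ISVZ at E42, 2 and 5 for IZ against CP at E37 and E42, and 7 for MZ against CP at E28. With the repeated file kept, OSVZ against ISVZ at E28 gave 0 (from 4), CPo against CPi 0 and MZ against CP at E42 6 (from 11). Calls lost in that setting (adjusted p = 0.0513 to 0.182) were those of DLX6A-AS-1, DLX5-AS-1, LINC-IRX6-2 and OTX2-AS-1 between OSVZ and ISVZ at E28, LHX6-AS-2 and OTX2-AS-1 between VZ and subventricular zones, LINC-LHX5-1 between IZ and CP at E28, DLX5-AS-1 and OTX2-AS-1 at E37 and LHX6-AS-1, OTX2-AS-1 and LINC-POU3F1-1 at E42 between MZ and CP, LINC-POU3F3-1 between CPo and CPi and in the stage difference, DLX6A-AS-1 in the subventricular zones and LINC-IRX6-2 from E37 to E42. Fits of the compared libraries alone gave 2 and 2 for OSVZ against ISVZ at E28 and E42, 0, 0 and 13 for IZ against CP at E28, E37 and E42 (from 5, 1 and 3), 1 and 3 for MZ against CP at E28 and E37 (from 2 and 9), and 5 for neuron-rich layers from E37 to E42 (from 3). With a class pooled, the stage difference of the germinal excess gave 1, VZ against the subventricular zones 3 (from 7), subventricular zones over time 4 (from 10) and neuron-rich layers from E37 to E42 1. DESeq2 size factors split the stage difference 3 higher and 1 lower against 2 and 2, and neuron-rich layers from E37 to E42 1 and 1 against 2 and 1.

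Without any 1 library the count was 3 to 8 for the stage difference of the germinal excess, 3 to 8 for VZ against the subventricular zones, 0 to 3 for OSVZ against ISVZ at E28, 1 to 5, 0 to 2 and 1 to 3 for IZ against CP at E28, E37 and E42, 1 to 3, 4 to 9 and 4 to 6 for MZ against CP at these stages, 0 to 1 for CPo against CPi and 4 to 9 for the subventricular zones over time.

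Most groups held 2 libraries and 1 count stood for up to 0.0556 CPM, so low members rested on few counts, and 67 of the 342 could be tested.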
